A study of Homo sapiens with 22 samples.

Results

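The response of LTAD prostate cancer cells to the androgen dihydrotestosterone (DHT) was measured in 4 libraries, which are the LTAD members of a series of 22 samples on the RNA partners of PSF, a nuclear splicing and paraspeckle protein encoded by SFPQ. The 4 libraries were chosen by their labels: input RNA and PSF-RIP RNA (immunoprecipitated with an antibody to PSF) from cells given ethanol vehicle for 24 h, and the same from cells given 10 nM DHT for 24 h. The labels call LTAD a prostate cancer line and do not spell the name out. Its cells were cultured in RPMI medium free of phenol red with charcoal/dextran-treated serum at 10%, and both treatment groups then spent 3 days in the same medium with such serum at 2.5%. Charcoal and dextran strip steroids from serum, so vehicle and DHT cells share the steroid-depleted culture and differ in the hormone. Each assay and treatment has 1 library, and nothing in the labels says whether the input and the PSF-RIP library of a treatment came from separate cultures. The question the design puts is which RNAs differ between hormone-treated and hormone-deprived cells of a line that is kept without steroids.

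Androgens are steroid hormones that raise or lower the transcription of many genes in the luminal cells of the prostate, which depend on them for growth and secretion. The genes they induce there include the kallikreins KLK2 and KLK3 (the latter encodes prostate-specific antigen), the protease TMPRSS2 and the co-chaperone FKBP5, while enzymes that inactivate androgens, such as UGT2B15 and UGT2B17, are among the genes they are known to lower. Reads in introns come mostly from RNA that has not been spliced, so they give another view of the same genes.

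The input libraries held 1073228 (vehicle) and 1586217 (DHT) mapped reads and the PSF-RIP libraries 6798077 and 8690936. Luminal markers were present, with reads for 19 of 19 (KRT8, KRT18 and EPCAM among them) and a summed level of 4710 to 8210 CPM (exonic reads scaled to the library's exonic total, without TMM scaling) over the 4 libraries. Of 13 basal markers 9 had reads (57.9 to 131 CPM) and of 18 stromal and leukocyte markers 11 had (329 to 676 CPM). Neuroendocrine markers reached 1430 to 2310 CPM over 10 of 16, most of it from SYT4, a synaptotagmin. The defining markers CHGA (neuroendocrine), TP63 (basal), DES (muscle) and PTPRC (leukocyte) had 0 reads in all 4 libraries. In bulk RNA, fewer cells of a type and less RNA per cell cannot be told apart.

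DHT was compared with vehicle by edgeR's quasi-likelihood test on exonic reads, with the assay as the pairing term and Benjamini-Hochberg adjustment at 0.05 over 12443 genes. A model of 4 libraries with those terms has 1 residual degree of freedom, which is the difference between the assays in their response. The spread was taken wholly from the trend over all genes, so a gene whose assays differ can still pass, and the p-values do not measure the spread between cultures. Of the genes tested, 1435 (11.5%) were higher after DHT and 1438 (11.6%) were lower. At least 2-fold changes numbered 241 higher (1.94% of the genes tested) and 235 lower (1.89%). The large changes were mostly increases: 68 genes rose and 20 fell at least 4-fold, and 24 rose and 3 fell at least 8-fold. Per-assay values had the same sign in both assays for 1405 of the 1435 higher genes and for 1361 of the 1438 lower genes. They did so for 5740 of the 9570 genes not called. The calls come from a fit over both assays, so like signs are partly built into them. DESeq2 called 458 genes (319 higher, 139 lower), and without scaling beyond library totals 956 were higher and 1669 lower. Each fit that leaves out an LTAD library, here and below, takes the LTAD change from the other assay's pair alone. Its spread comes from the other lines. A fit without a PSF-RIP library thus rests on the input pair, which has far fewer reads. Without the vehicle PSF-RIP library 693 genes were called and without the DHT one 706, whereas 2920 and 3012 were called without the vehicle and the DHT input library.

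**Figure D1:**
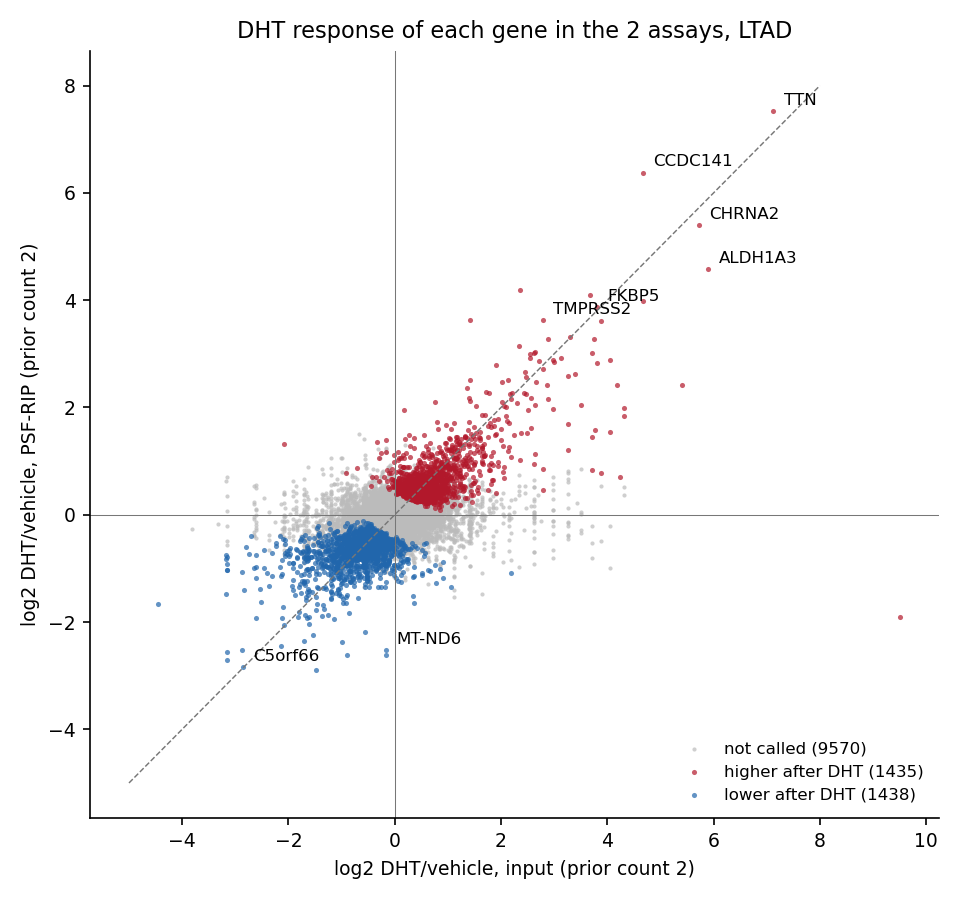
Each point is 1 of the 12443 genes, with its log2 DHT/vehicle ratio in input (horizontal axis) and in PSF-RIP (vertical axis), and the dashed line marks equal responses. Called genes (1435 red, 1438 blue) lie mostly in the lower left and upper right, with TTN, CCDC141 and CHRNA2 at the top, and the isolated red point at the far right is EPS8L1, whose assays moved in opposite directions.

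The kallikrein neighbours KLK3 (chr19:51358171-51364020) and KLK2 (chr19:51376689-51383823, both hg19, plus strand) are the textbook androgen-induced secreted proteases of the prostate, and their promoters are shown because both genes rose and because the promoters share a long stretch. The 250 bases before each RefSeq start site (GRCh38.p14, plus strand, chr19:50854665-50854914 for KLK3 and chr19:50873189-50873438 for KLK2) are printed 5′ to 3′, with the match to GAACANNNAGTGCT in capitals.
KLK3: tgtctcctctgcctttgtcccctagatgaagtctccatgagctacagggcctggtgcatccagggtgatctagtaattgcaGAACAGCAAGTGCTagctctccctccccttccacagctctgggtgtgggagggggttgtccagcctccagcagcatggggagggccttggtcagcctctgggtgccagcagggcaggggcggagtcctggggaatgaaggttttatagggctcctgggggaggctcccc
KLK2: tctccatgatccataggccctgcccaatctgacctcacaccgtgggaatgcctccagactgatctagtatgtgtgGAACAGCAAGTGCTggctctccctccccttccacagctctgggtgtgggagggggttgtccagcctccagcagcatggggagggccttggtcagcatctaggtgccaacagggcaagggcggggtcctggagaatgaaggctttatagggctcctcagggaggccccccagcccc
The match begins 169 bases before the start site in KLK3 and 175 in KLK2, and the promoters share an unbroken run of 80 bases. This pattern was chosen after reading these 2 promoters. Searched on both strands, it was present in 14 of 35116 RefSeq promoters of this length (0.0399%) and in 5 of the 13689 promoters of tested genes (0.0365%), KLK2 and KLK3 included, from which the pattern was taken. A match is a description of letters, not of binding.

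KLK2 stood at 93.7 and 78.0 CPM in the vehicle input and PSF-RIP libraries and at 389 and 319 after DHT. Both DHT libraries lay above both vehicle libraries, and the log2 change was 2.04 ± 0.12 (SE; adjusted p = 7.7e-59). KLK3 had far fewer reads: 2 in vehicle input, 13 in DHT input, 14 in vehicle PSF-RIP and 57 in DHT PSF-RIP. Its log2 change was 1.76 ± 0.41 (adjusted p = 0.00027), and the input libraries alone gave a ratio of 4.27 with a 95% counting interval of 0.967 to 39.0, which includes no change. Without the DHT or the vehicle PSF-RIP library KLK3 did not pass (adjusted p = 0.20 and 0.21). STEAP4, a metalloreductase gene that is androgen-induced in other prostate cells, had 1 and 0 reads in input and 0 and 1 in PSF-RIP (vehicle, then DHT) and could not be tested.

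FKBP5 (chr6:35541362-35656692, minus strand) had the smallest p among the known androgen targets. Its level was 92.3 CPM in vehicle input and 67.7 in vehicle PSF-RIP, against 1297 and 993 after DHT, a log2 change of 3.85 ± 0.15 (14.5-fold, adjusted p = 3.3e-144). TMPRSS2 (chr21:42836478-42879992, minus strand), the serine protease whose promoter is fused to ERG in many prostate cancers, went from 18.5 to 130 in input and from 11.3 to 145 in PSF-RIP (log2 3.52 ± 0.17). The prostate membrane transporter gene SLC45A3 (chr1:205626981-205649630, minus strand) went from 36.9 to 299 and from 50.2 to 366 (log2 2.90 ± 0.13). For each of the 3 genes both DHT libraries lay above both vehicle libraries. The log2 ratios in input and PSF-RIP were 3.80 and 3.86 for FKBP5 and 2.78 and 3.63 for TMPRSS2.

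Among the other genes at or above the median expression that rose most, IGF1R, the receptor for insulin-like growth factor 1, stood at 6.60 and 14.2 CPM in vehicle input and PSF-RIP and at 94.5 and 142 after DHT (chr15:99191768-99507759, plus strand, log2 3.38 ± 0.18). CHRNA2, a nicotinic acetylcholine receptor subunit gene on chromosome 8, had 1 and 10 reads in the vehicle libraries and 111 and 689 in the DHT libraries (log2 5.8 ± 0.26). In input its ratio was 72.9, with an interval of 12.8 to 2910. CENPN, a centromere protein gene, went from 54.1 to 404 CPM in input and from 41.7 to 411 in PSF-RIP (log2 3.20 ± 0.14), and NCAPD3, a condensin II subunit gene, rose by log2 2.84 ± 0.13, with 71.3 CPM in PSF-RIP vehicle and 546 in PSF-RIP DHT. The remainder of the 15 highest were PHLDB2 (3.03), CDC42EP3, an effector of the GTPase CDC42 (2.94), GREB1, a hormone-receptor coregulator gene (2.87), NDRG1 (2.86), the lysophospholipid acyltransferase gene MBOAT2 (2.83), PMEPA1, an inhibitor of TGF-beta signalling (2.74), and SOCS2, a suppressor of cytokine signalling (2.59), all as log2 changes. ALDH1A3, a retinaldehyde dehydrogenase gene of the androgen-induced list, had 0 and 2 vehicle reads and 34 and 149 DHT reads in input and PSF-RIP, a ratio over both assays of 71.7 with an interval of 19.6 to 596.

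**Figure D2:**
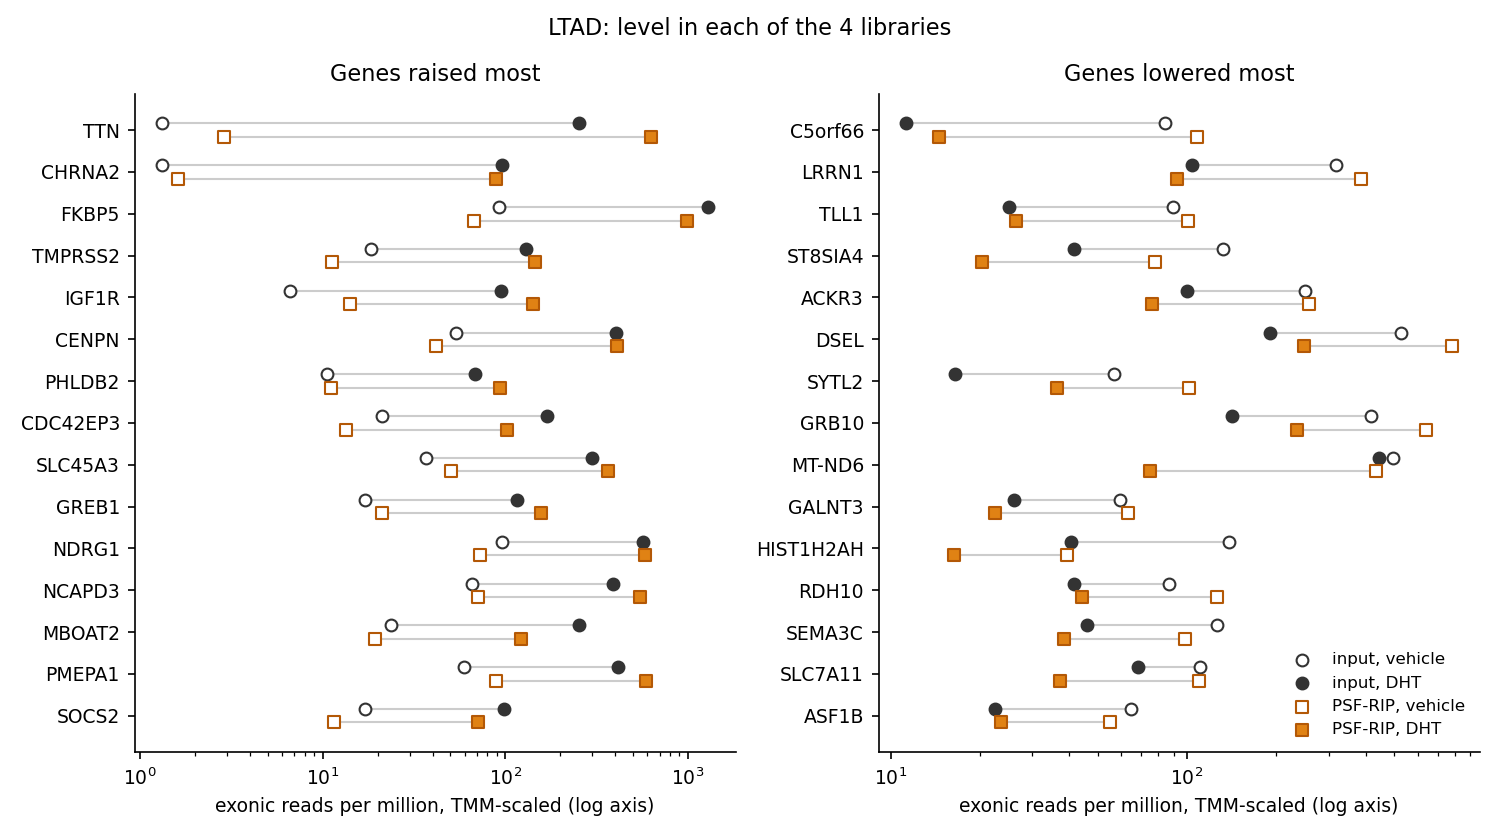
TMM-scaled exonic CPM (log axis) in each of the 4 libraries for the 15 genes with the highest and the 15 with the lowest log2 change among called genes at or above median expression with the same sign in both assays. Open and filled symbols are well apart for nearly all genes, and MT-ND6 is the one whose input libraries (495 and 444) nearly coincide.

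The most extreme change was in TTN (chr2:179390717-179672150, minus strand), which encodes titin, the giant elastic protein of the muscle sarcomere. Vehicle libraries held 1 read in input and 18 in PSF-RIP, and DHT libraries held 292 and 4846. The log2 change was 7.73 ± 0.22 (adjusted p = 5.4e-256), and the ratio in input alone was 192 with a counting interval of 34.2 to 7600. The reads were spread over the gene's introns too: in PSF-RIP, introns with reads went from 1 in vehicle to 101 in DHT, carrying 1 and 222 reads, and in input from 1 to 10 introns, carrying 1 and 16 reads. On intronic reads the log2 change was 6.64 ± 0.49 (adjusted p = 3.7e-09). The promoter of TTN (RefSeq, GRCh38.p14, chr2:178807424-178807673, minus strand) is shown because this gene changed most, with its single AGAACA hexamer, 143 bases before the start site, in capitals.
TTN: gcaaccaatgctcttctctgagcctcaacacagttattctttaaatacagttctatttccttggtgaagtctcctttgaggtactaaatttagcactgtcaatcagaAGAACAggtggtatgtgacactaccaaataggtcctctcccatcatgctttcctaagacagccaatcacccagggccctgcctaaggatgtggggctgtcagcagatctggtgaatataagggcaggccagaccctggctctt
AGAACA is one arm of the idealised androgen response element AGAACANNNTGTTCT. Searched on both strands, the single arm was present in 12.4% of all promoters of this length, in 7.82% of those of tested genes, in 7.89% of those of genes at least 2-fold higher and in 8.76% of those of genes at least 2-fold lower. The whole element was in 1 of 35116 promoters and in 0 of those of tested genes.

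The next gene upstream of TTN on the same strand, CCDC141 (chr2:179694484-179914786), which encodes a coiled-coil protein, moved with it. It lies 22333 bases away and is named here after its values were seen. Its exonic reads went from 1 to 53 in input and from 1 to 424 in PSF-RIP (log2 7.39 ± 0.39, adjusted p = 1.3e-76), a ratio over both assays of 187 with an interval of 51.4 to 1550. The other tested genes within 600 kb did not pass the test: RBM45 changed by -0.22, OSBPL6 by -0.62, PRKRA by -0.11, FKBP7 by -0.42, PLEKHA3 by 0.07, SESTD1 by -0.09 and the antisense gene TTN-AS1, which is counted on its own strand, by -0.40. The summed level of 30 muscle genes, TTN among them, went from 93.0 to 329 CPM in input and from 234 to 867 in PSF-RIP (without TMM scaling). Without TTN the sum was 91.8 and 100.0 CPM in vehicle and DHT input and 231 and 201 in PSF-RIP. Of these genes 23 had reads and 3 were tested. TTN was the 1 that passed; TNNT1 changed by 0.20 (adjusted p = 0.43), and DES had 0 reads.

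C5orf66 (chr5:134368970-134680370, plus strand) fell most among the genes at or above median expression. Its level was 84.4 and 108 CPM in vehicle input and PSF-RIP and 11.3 and 14.6 after DHT, a log2 change of -2.89 ± 0.17 (7.4-fold lower, adjusted p = 5.8e-59). LRRN1, a neuronal leucine-rich repeat protein gene (chr3:3841115-3891518, plus strand), went from 318 to 104 in input and from 385 to 92.8 in PSF-RIP (log2 -1.91 ± 0.12). ACKR3, an atypical receptor for the chemokine CXCL12 (chr2:237478380-237490994, plus strand), went from 251 to 99.7 and from 258 to 75.9 (log2 -1.63 ± 0.12). In each of these genes both DHT libraries lay below both vehicle libraries.

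Further genes among the lowest were the extracellular protease gene TLL1 (log2 -1.90), the polysialyltransferase gene ST8SIA4 (-1.86), DSEL, a dermatan sulfate epimerase-like gene (-1.59), SYTL2, of vesicle trafficking (-1.52), the receptor adaptor gene GRB10 (-1.48), GALNT3, which starts O-glycan chains (-1.43), the histone gene HIST1H2AH (-1.43), the retinol dehydrogenase gene RDH10 (-1.41), SEMA3C, a secreted semaphorin gene (-1.39), SLC7A11, the cystine transporter gene (-1.30), and the histone chaperone gene ASF1B (-1.27). MT-ND6, a mitochondrial complex I gene, is in this set with -1.47, but the assays differed: 495 and 444 CPM in vehicle and DHT input against 433 and 74.7 in PSF-RIP. HIST1H2AH belongs to a family of near-identical histone genes, so its count may share reads with its copies.

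The list of androgen-induced genes holds 60 symbols taken from general knowledge of the pathway. Like the other lists, it was chosen with earlier results of these data known, so its counts are not an outside check. Of the 60, 53 had enough reads to be tested. Of all genes tested, 11.5% were higher, 1.94% at least 2-fold, and 11.6% were lower. Of the 53 tested members, 48 were higher, 42 of them at least 2-fold, and 0 were lower. Their median log2 change was 1.81, against -0.02 over all genes tested. Those not past the threshold were KLK15, TSC22D3, ADAMTS1, VIPR1 and MED28. The untested ones were STEAP4, PTGER4, ADAM7, ORM1, HPGD, PGC and SLC38A4, and since a gene silent in vehicle enters the test through its DHT reads, the count describes the tested members and not the list as a whole. HPGD, for example, had 0 reads in vehicle and in DHT input and 12 in DHT PSF-RIP. DESeq2 called 38 of the 53, and without either PSF-RIP library 37 were called.

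Of 14 androgen-repressed genes 9 were tested, 6 lower and 2 higher, with a median of -0.94. At least 2-fold changes numbered 4 lower and 1 higher, and the changes ran from -1.46 to 1.32. The genes named below all had lower fitted values. Over all genes tested 11.6% were lower and 11.5% higher. SEMA3C went from 127 to 45.9 CPM in input and from 98.5 to 38.3 in PSF-RIP. CAMK2N1, an inhibitor of a calcium-dependent kinase, went from 73.9 to 23.4 and from 48.9 to 18.5 (log2 -1.46 ± 0.16), and FOLH1, which encodes prostate-specific membrane antigen, from 68.6 to 32.9 and from 105 to 46.2 (-1.16 ± 0.15). UGT2B15, which conjugates androgens to glucuronic acid, went from 36.9 to 20.8 and from 37.5 to 15.5 (-1.19 ± 0.19, adjusted p = 9.4e-09). Its close relative UGT2B17 passed the test with -0.94 ± 0.33 (adjusted p = 0.025) on unlike assays, with 4 and 9 reads in vehicle and DHT input and 65 and 35 in PSF-RIP. The UGT2B genes are similar in sequence, so uniquely mapped reads may undercount both. DESeq2 called 3 of the 9 lower. The fits without either PSF-RIP library tested 11 and called 3 lower and 1 higher, with a median of 0.0.

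Of 25 tested genes for steroid receptor cofactors and partner factors, 9 were higher and 1 was lower, beside 11.5% and 11.6% of all genes tested. Of these calls 0 reached 2-fold, and the median of the 25 was 0.20. The SUMO ligase gene PIAS1 changed most (0.89 ± 0.15), followed by the acetyltransferase gene EP300 (0.60), the coactivator gene NCOA4 (0.53) and the corepressor gene NCOR1 (0.49), and the prostate factor HOXB13 rose by 0.39. The lower gene was GATA2 (-0.34, adjusted p = 0.030), a pioneer transcription factor, while the pioneer factor FOXA1 was higher (0.35, adjusted p = 0.024).

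The mRNA of PSF did not change detectably: SFPQ (chr1:35649201-35658743, minus strand) stood at 158 and 314 CPM in vehicle input and PSF-RIP and at 148 and 326 after DHT (log2 0.01 ± 0.12, adjusted p = 0.97). Its partner NONO rose slightly (0.32 ± 0.11, adjusted p = 0.027) and the third family member PSPC1 did not pass (0.17 ± 0.18, adjusted p = 0.54). NEAT1, the long noncoding scaffold of paraspeckles, went from 1239 to 826 in input and from 503 to 379 in PSF-RIP (chr11:65190269-65213009, log2 -0.49 ± 0.12, adjusted p = 0.00057). MALAT1, which is abundant in nuclear speckles, did not pass (0.08 ± 0.24, adjusted p = 0.85). Across 25 paraspeckle genes 6 were higher and 1 lower, and of 21 genes for SR proteins and their kinases 3 were higher, near the 11.5% of all genes tested (SRRM2, SRSF4 and CLK3, the last with -0.06 in input and 0.59 in PSF-RIP). The hnRNP genes, whose proteins package nascent RNA, had 12 of 27 higher and 0 lower with a median of 0.17, led by HNRNPH2 (0.71) and HNRNPK (0.58). That count fell to 4 with DESeq2, to 5 without either PSF-RIP library and to 8 (with 1 lower) without scaling.

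Polyamine synthesis had 5 of 11 genes higher and 0 lower, with a median of 0.47, beside 11.5% higher and 11.6% lower over all genes tested. ODC1, which encodes ornithine decarboxylase, the entry enzyme of the pathway (chr2:10580497-10588680, minus strand), went from 396 to 1822 CPM in input and from 290 to 1398 in PSF-RIP (log2 2.24 ± 0.13, adjusted p = 6.6e-59). The others were SAT1, of polyamine catabolism (1.28), the spermine synthase gene SMS (0.92), the arginase gene ARG2 (0.85) and AMD1, of S-adenosylmethionine decarboxylation (0.47). In sterol and fatty acid synthesis, 13 of 32 genes were higher and 1 was lower, with a median of 0.21. ACSL3, which activates long-chain fatty acids, went from 199 to 986 and from 208 to 885 (2.17 ± 0.13). The elongase gene ELOVL7 had 1 and 6 vehicle reads and 29 and 77 DHT reads in input and PSF-RIP (3.50 ± 0.45), and the related ELOVL5 rose by 1.11. Fatty acid synthase (FASN, 0.94), lanosterol synthase (LSS, 0.91) and HMG-CoA synthase (HMGCS1, 0.90) rose less than 2-fold, and the elongase gene ELOVL6 was the lower one (-0.81).

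Glycosylation and secretory pathway genes had 13 of 25 higher and 4 lower (median 0.37). UAP1, which makes UDP-N-acetylglucosamine, went from 102 to 265 CPM in input and from 93.2 to 281 in PSF-RIP (1.53 ± 0.12). ST6GALNAC1, a sialyltransferase gene, had 1 and 10 vehicle reads and 20 and 158 DHT reads (3.64 ± 0.38). Other glycosyltransferases moved the other way, namely GALNT3 and ST3GAL1 (-1.0 ± 0.12). With DESeq2 6 were higher and 2 lower, and without a PSF-RIP library 5 or 6 were higher. Of 29 genes of endoplasmic reticulum folding and stress 5 were higher, led by the transcription factor CREB3L4 (1.12), and 6 lower, including DDIT3 (-0.68), the stress-induced factor CHOP, beside 11.5% higher and 11.6% lower over all genes tested. In steroid metabolism 3 of 15 were higher and 4 lower, with HSD17B4, of peroxisomal oxidation, at 1.15.

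The counts of the next lists stand beside 11.5% higher and 11.6% lower over all genes tested. Growth factor genes had 4 of 20 higher and 2 lower. The higher ones were IGF1R, IRS2, an adaptor of its pathway (1.16), IGFBP5, a binding protein for its ligands (1.11), and the ETS factor ETV1 (0.82). The kinase subunit gene PIK3R1 (-0.58) and the binding protein gene IGFBP3 (-0.46) were lower. Of 22 glycolysis and hypoxia genes 4 were higher and 2 lower, with PFKFB2 at 1.12 and the hexokinase genes HK1 at 0.86 and HK2 at 0.58. Immediate-early and stress-response factors had 4 of 14 higher, FOSL2 (1.40), KLF4 (1.49), NR4A1 (0.69) and JUN (0.57), and MYC lower (-0.46). Luminal markers had 7 of 17 higher and 6 lower, with a median of 0.03. Both assays were positive for 8 of them and negative for 8. The keratins KRT8 (1.41) and KRT18 (1.16) and the epithelial factor GRHL2 (1.48) rose, whereas FOLH1 fell (-1.16). Of 19 interferon response genes 2 were higher and 3 lower, of 20 p53 targets 0 and 3, and of 3 basal markers 0 and 2. Of 14 prostate and nuclear long noncoding RNAs 4 were lower, among them GAS5 (-1.01) and PVT1 (-0.73), and 1 was higher. The higher one, CTBP1-AS, had 2 and 17 vehicle reads and 13 and 169 DHT reads in input and PSF-RIP (2.89 ± 0.34).

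**Figure D3:**
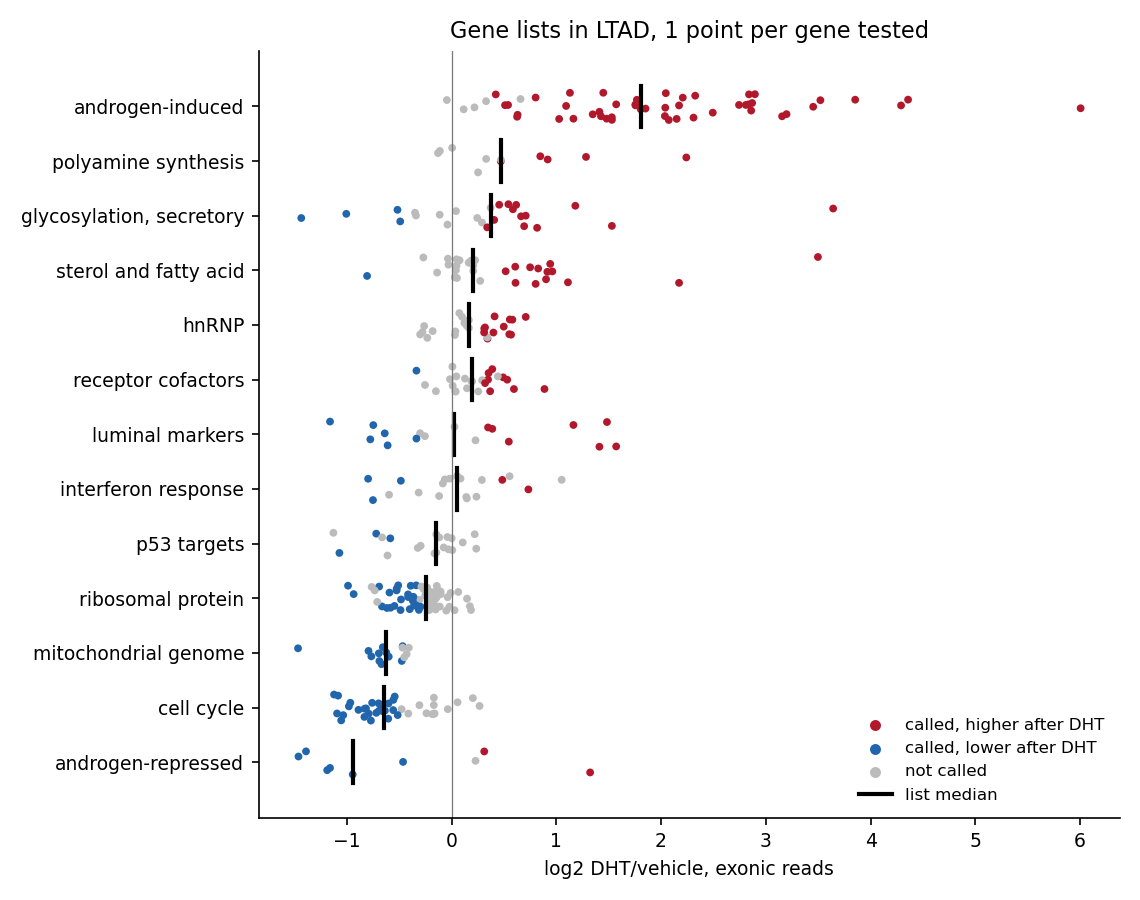
Log2 DHT/vehicle change on exonic reads for the tested members of 13 gene lists, 1 point per gene, with called genes in colour and list medians as black bars. The androgen-induced members spread to the right around a median of 1.81, while cell cycle genes lie mostly left of 0 around -0.64.

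Cell cycle genes were lower after DHT in this line. Of 40 tested, 27 were lower and 0 were higher, with a median of -0.64, beside 11.6% lower and 11.5% higher over all genes tested. TYMS, which makes thymidylate for DNA synthesis, went from 106 to 48.5 CPM in input and from 105 to 49.4 in PSF-RIP (log2 -1.09 ± 0.14, adjusted p = 5.6e-13). The mitotic kinase gene CDK1 went from 145 to 70.2 and from 106 to 55.0 (-0.98 ± 0.13), and the replication clamp gene PCNA from 166 to 84.1 and from 205 to 121 (-0.82 ± 0.12). The transcription factors E2F1 (-1.08) and FOXM1 (-0.76), which drive S phase and mitotic genes, and the proliferation marker MKI67 (-0.56) were lower as well. The changes were under 2-fold for most members, and the call count depended on the tool and the PSF-RIP libraries: DESeq2 called 5, and without either PSF-RIP library 7 were called, with medians of -0.56 and -0.49.

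Part of the ribosomal protein and mitochondrial transcripts were lower too. Of 68 ribosomal protein genes 25 were lower and 0 higher, beside 11.6% lower and 11.5% higher over all genes tested. The median of the 68 was -0.24, with RPS16 at -0.55 and RPLP0 at -0.51. With DESeq2 1 was lower, without either PSF-RIP library 9 or 10, and without each input library 16. Of 15 genes of the mitochondrial genome 11 were lower and 0 higher, with a median of -0.62. In input their median was -0.26 and in PSF-RIP -1.03, and without either PSF-RIP library 2 were called. The mitochondrial share of exonic reads was 13.4% in vehicle and 10.8% in DHT input and 0.472% and 0.229% in PSF-RIP, where few such reads were recovered.

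Intronic reads gave an account of unspliced RNA that is partly separate from the exonic counts, although both come from the same 4 libraries. Of 10180 genes tested on introns, 222 (2.18%) were higher and 83 (0.815%) lower. Of these, 176 and 68 were also called on exons in the same direction, 0 in the opposite direction, and 46 and 15 were not called on exons. Of the 241 genes at least 2-fold higher on exons 158 could be tested on introns; 154 had a positive intronic change and 106 were called higher. Of the 235 lower genes 115 could be tested, 111 had a negative intronic change and 26 were called lower. The median intronic change was 1.30 in the first group, beside 1.39 on exons for the whole group, and -0.84 in the second, beside -1.26.

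Single genes showed the same. KLK2 had 18 and 128 intronic reads in vehicle and DHT input and 291 and 1655 in PSF-RIP (log2 2.46 ± 0.18, beside 2.04 on exons). FKBP5 had 9 and 100, and 51 and 560 (3.33 ± 0.21), and TMPRSS2 3 and 40, and 18 and 246 (3.65 ± 0.27). For ODC1 the intronic change was 1.37 ± 0.18 and the exonic one 2.24. C5orf66 fell by 1.92 on introns, with 76 and 25 reads in input and 1144 and 318 in PSF-RIP. Among cell cycle genes 1 of 36 was called lower on introns, with a median of -0.56, beside 0.815% lower over all genes tested on introns. In the androgen-induced list 34 of 45 were called higher, with a median of 1.59, beside 2.18% higher over all genes. With DESeq2 these list counts were 0 and 18.

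A pair of features of the intron counts bear on these numbers, and both were measured. First, the intronic share of intronic and nuclear exonic reads was lower after DHT in both assays, 14.2% against 12.3% in input and 15% against 12.5% in PSF-RIP, and intronic reads were scaled on their own. Scaled with the exonic library sizes, 124 genes were higher and 357 lower on introns, with a median of -0.27 over all genes. Secondly, an intron of one transcript can hold exons of another. Restricted to introns with no annotated exon, an alternative chosen after seeing the data, 36 genes were higher and 5 lower. TTN, FKBP5, TMPRSS2, IGF1R, CENPN and C5orf66 were called in that set. DESeq2 called 48 higher and 10 lower, and without a PSF-RIP library 42 or 47 genes were called.

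**Figure D4:**
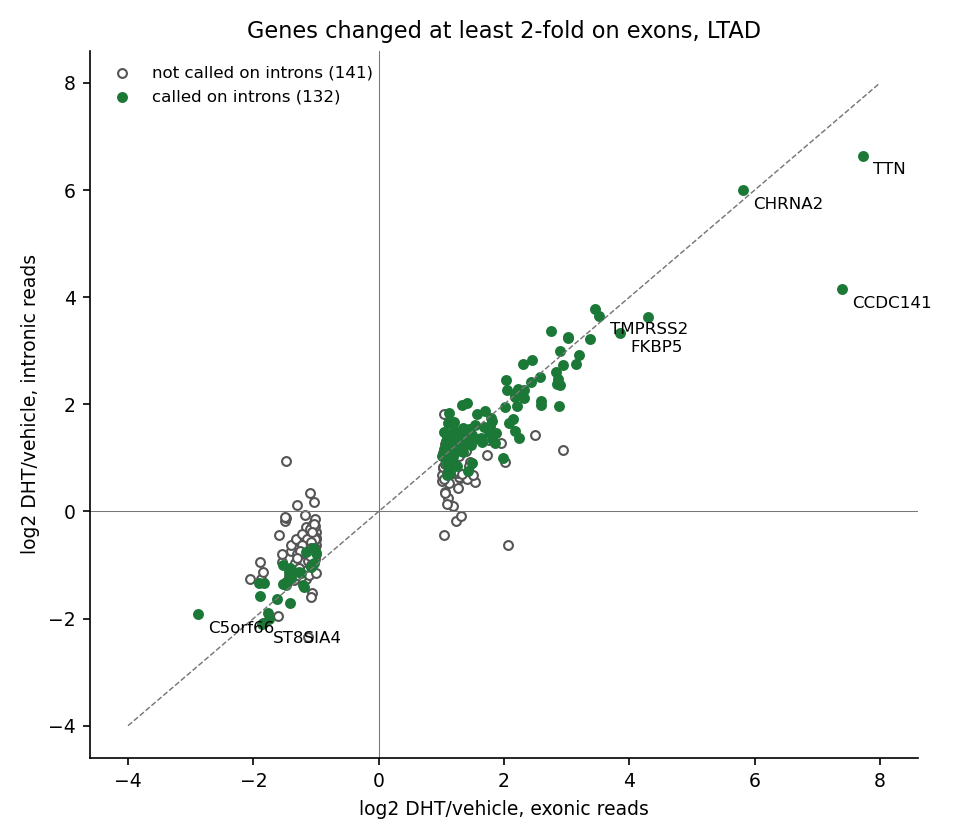
Log2 DHT/vehicle change on exonic reads (horizontal axis) and on intronic reads (vertical axis) for the 273 genes changed at least 2-fold on exons and tested on introns. Filled points (132) were called on introns; 154 of the 158 higher genes and 111 of the 115 lower genes have the same sign on both axes, and CCDC141 lies furthest below the line of equal change.

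The response was set against that of LNCaP, an androgen-responsive line, and 22Rv1, a line derived from a relapsed prostate cancer xenograft, which had the same treatments and 1 library per assay and treatment. Both were grown in 10% FBS before the 3 days of steroid depletion, unlike LTAD. Differences of the signed log2 changes were tested in 1 model of 12 libraries with 3 residual degrees of freedom. A lower response can therefore be a larger fall. The response was higher in LTAD than in LNCaP for 729 of 13361 genes (5.46%) and lower for 712 (5.33%), and higher than in 22Rv1 for 611 (4.57%) and lower for 440 (3.29%). Both comparisons use the same LTAD libraries. DESeq2 called 93 higher and 235 lower against LNCaP.

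Cell cycle genes differed in their response between the lines. In this model their median log2 change was -0.66 in LTAD (29 of 40 lower, 0 higher), 1.6 in LNCaP (37 higher, 0 lower) and 0.12 in 22Rv1 (4 higher, 0 lower). Of all 13361 genes, 1657 were higher and 1621 lower in LTAD, 860 and 927 in LNCaP, and 831 and 1255 in 22Rv1. The response of LTAD was below that of LNCaP for 38 of 40 genes and below that of 22Rv1 for 26, and above it for 0 in both. Over all genes tested the response of LTAD was below that of LNCaP for 5.33% and below that of 22Rv1 for 3.29%. MKI67 changed by -0.56 in LTAD and 2.79 in LNCaP, a difference of -3.34 ± 0.19 (adjusted p = 4.0e-63), and by -0.04 in 22Rv1. For E2F1 the values were -1.08, 1.59 and -0.04. DESeq2 called 32 genes against LNCaP and 9 against 22Rv1, and without either PSF-RIP library of LTAD 27 were called against LNCaP and 6 or 7 against 22Rv1.

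The androgen-induced list had a median of 1.84 in LTAD, 1.31 in LNCaP and 0.74 in 22Rv1 over 57 genes. Against LNCaP 20 genes responded more in LTAD and 3 less, and against 22Rv1 32 more and 3 less. Over all genes tested the shares were 5.46% and 5.33% against LNCaP and 4.57% and 3.29% against 22Rv1. With DESeq2 the list counts were 10 and 2, and 23 and 2. Without either PSF-RIP library 9 responded more than in LNCaP and 17 or 18 more than in 22Rv1. The members did not share 1 order of lines. KLK2 changed by 2.04 in LTAD, 3.61 in LNCaP and 0.56 in 22Rv1, so LTAD lay below LNCaP by 1.57 ± 0.17 (adjusted p = 1.2e-18) and above 22Rv1 by 1.47 ± 0.16 (adjusted p = 4.1e-17). FKBP5 responded more in LTAD (3.85) than in LNCaP (2.87, adjusted p of the difference 1.1e-06) and in 22Rv1 (2.90, adjusted p = 5.3e-08). IGF1R changed by 3.37, 1.44 and 0.77, and both differences passed (adjusted p = 1.3e-18 and 4.9e-38). TMPRSS2 did not differ detectably between LTAD and LNCaP (3.54 and 3.67, difference -0.13 ± 0.22, adjusted p = 0.90) and was 0.72 in 22Rv1. TTN, the most changed gene of LTAD, had a fitted change of 7.72 there. The fitted change was 7.34 ± 0.48 in LNCaP and 4.63 ± 1.46 in 22Rv1. With the prior count of 2, its values in input and PSF-RIP were 7.05 and 7.49 in LTAD. They were 5.02 and 5.64 in LNCaP and 1.19 and 1.34 in 22Rv1. The difference in TTN passed against neither LNCaP nor 22Rv1 (adjusted p = 0.996 and 0.94). Each difference was smaller than its SE, so these tests cannot decide whether the lines differ in TTN. STEAP4 rose by about 5.0 in LNCaP and 5.19 in 22Rv1 on the log2 scale, whereas LTAD had 1 read in each treatment over both assays, and the difference did not pass (adjusted p = 0.21 and 0.22).

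Interferon response genes had a median of 0.07 in LTAD, -1.0 in LNCaP (16 of 20 lower, 0 higher) and -0.11 in 22Rv1. In LNCaP 927 of all 13361 genes were lower and 860 higher. STAT2 (0.46 in LTAD and -0.65 in LNCaP) and DDX58, an RNA sensor gene (-0.02 and -1.44), were among those with a higher response in LTAD. Beside 5.46% of all genes tested, the response of LTAD was above that of LNCaP for 14 of the 20 interferon genes. DESeq2 called 2 of them, and 2 were called without either PSF-RIP library of LTAD.

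**Figure D5:**
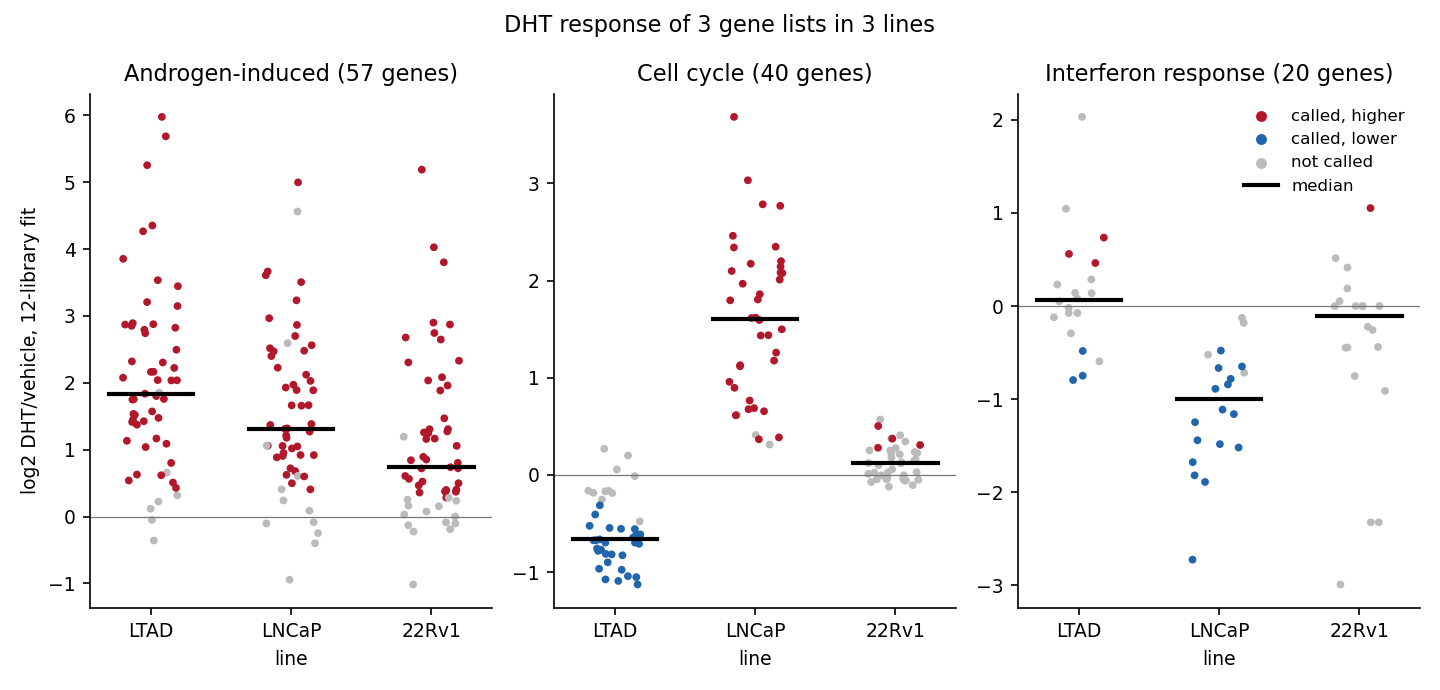
Log2 DHT/vehicle change in LTAD, LNCaP and 22Rv1 from the model of 12 libraries for the tested members of 3 lists, 1 point per gene, with called genes in colour and medians as bars. Cell cycle medians are -0.66, 1.6 and 0.12, and interferon medians 0.07, -1.0 and -0.11.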

How the data were processed

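The authors deposited 1 table per library of raw counts, in whole uniquely mapped reads, for hg19 RefSeq transcripts, their introns, the opposite strand and the gaps between genes, per the file headers. The tools named by the submitters' processing notes are Bowtie2 2.2.6, TopHat2 2.1.0 and Bowtie. Libraries were made with Agilent's SureSelect RNA target enrichment kit and the RIP with a Millipore EZ-Magna kit, per the labels' protocols. Features without reads are not listed and were taken as 0. From these, the sense-strand exonic count of the transcript with the highest mean was used per gene symbol, and intron counts of that transcript were summed.

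The quasi-likelihood test of edgeR 4.0.16, run in R 4.3.3 with limma 3.58.1, was applied to the counts after TMM scaling, with the default expression filter by treatment (by treatment and assay for the 12 libraries), the assay as the pairing term and Benjamini-Hochberg adjustment at 0.05 over all genes tested; every adjusted p comes from it. The pairing is by assay: the vehicle and DHT libraries of input form one pair and those of PSF-RIP the other, and each assay and treatment has 1 library. SE is the log2 change divided by the root of its F statistic. Levels of single genes are exonic CPM of the TMM-scaled library, summed levels of marker lists are CPM of all exonic reads without TMM scaling, and per-assay log2 values use a prior count of 2. Ratios of genes with 1 to 3 vehicle reads have exact 95% intervals, bounds are set against a group floor of 3 reads, and both cover counting error only. DESeq2 1.42.0 and the other settings in the closing section were alternatives. On simulated counts for 12443 genes in these 4 libraries, the exonic test recovered 81 of 100 genes changed 2-fold and 97 of 100 changed 4-fold, with 6 false calls. The simulated spread was the common one of this fit, a coefficient of variation of 6.59%. No difference between the assays in response and no spread between cultures was simulated. The number of false calls therefore holds for that setting and not for the real counts.

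Named genes are 16 fixed genes, the 15 highest and 15 lowest called changes at or above median expression with the same sign in both assays, the 5 smallest p in each direction, up to 4 members of each list with the smallest p, and for line differences the 8 highest and 8 lowest with the same sign in both assays. Other names, such as CCDC141, EPS8L1 and list members beyond the first 4, were chosen after their values were seen. Some genes of these sets are not reported here. The members, lists and rules were chosen with earlier results of these data known. A second LNCaP set, in 2 tables of the whole series with 12 columns of reads, RPM and RPKM that match no single sample, and the CLIP samples were not used here.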

Additional observations from a re-analysis of the deposited data

Results flagged for a closer look

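The test of the difference between lines called 1441 genes between LTAD and LNCaP and 1051 between LTAD and 22Rv1. Of the fixed genes reported here, the response in LTAD differed from that in LNCaP for KLK2 (-1.57), FKBP5 (0.99) and SLC45A3 (0.67), and from that in 22Rv1 for KLK3 (1.6), KLK2 (1.47), TMPRSS2 (2.82), FKBP5 (0.95) and SLC45A3 (0.81), all as differences of log2 changes. Among the lists, the log2 change in LTAD was below that in LNCaP for 38 cell cycle genes and below that in 22Rv1 for 26. It was above that in LNCaP for 14 interferon genes and 20 androgen-induced genes, and above that in 22Rv1 for 32 androgen-induced genes. Over all genes tested, 5.33% were below and 5.46% above LNCaP, and 3.29% below and 4.57% above 22Rv1. The cell cycle medians were -0.66 in LTAD, 1.6 in LNCaP and 0.12 in 22Rv1. The interferon medians were 0.07 in LTAD and -1.0 in LNCaP.

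The largest differences from LNCaP by the naming rule were in CLU (8.53), RTBDN (7.25), MST1R (6.80), RFPL1S (6.23), TNC (5.8), LAMB1 (4.94), ALDH1A3 (4.05) and KCNH6 (3.88) upwards and in HIST1H2AB (-8.20), MND1 (-7.89), HIST2H3D (-5.07), NEIL3 (-4.71), HIST1H4A (-4.66), HIST1H3B (-4.52), ESCO2 (-4.42) and KIF4B (-4.14) downwards. Most rest on few reads, and these fitted values depend on the prior count. CLU had 44 reads in DHT PSF-RIP and 0 in the other 3 LTAD libraries, at least 11.5-fold higher over both assays. HIST1H3B, a replication-dependent histone gene with more reads, had 127 and 65 in input and 200 and 124 in PSF-RIP (vehicle, then DHT), and its log2 change was -1.23 in LTAD and 3.28 in LNCaP; histone copies may share reads.

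Against 22Rv1 the corresponding genes were ALDH1A3 (6.99), NPPC (6.11), SRRM4 (6.04), SV2A (5.78), BMP2 (5.54), RHBDL1 (5.37), TNC (5.29) and NPNT (4.74) upwards and COL16A1 (-5.91), UGT2B11 (-5.14), NGFR (-3.87), HIST2H3D (-3.44), BIRC3 (-2.98), TMEM154 (-2.87), MT-TE (-2.61) and CENPQ (-2.56) downwards. NPPC, which encodes C-type natriuretic peptide, had 0 vehicle reads and 34 DHT reads in LTAD, at least 8.88-fold higher. SRRM4, a neuronal splicing regulator gene, had 15 reads in DHT PSF-RIP and 0 in the other 3 LTAD libraries, at least 3.92-fold higher.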

How the results depend on the processing

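DESeq2 called 458 genes on exons, 58 on introns, 328 against LNCaP and 204 against 22Rv1. Leaving out each LTAD library in turn, with the spread taken from the other lines, gave 693 to 3012 genes on exons, 42 to 389 on introns, 486 to 1400 against LNCaP and 322 to 1012 against 22Rv1. Without the replicate block (no assay term for the pairing of input and PSF-RIP) 0 genes passed in edgeR, with 343 at an unadjusted p under 0.05. On introns, exonic library sizes gave 481, all 12 libraries 459 and introns without annotated exons, chosen after seeing the data, 41. For the line differences a treatment-by-assay term shared by the lines, in place of a replicate block, gave 1561 and 1184.

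Of the genes named, SFPQ turned to -0.056 without scaling. Leaving out a library changed the sign of exonic UGT2B17 (-1.21 to 0.56), SFPQ (-0.094 to 0.058), MALAT1 (-0.040 to 0.20), CLK3 (-0.057 to 0.59) and DST (-0.99 to 0.39), and of intronic SFPQ (-0.49 to 0.50), PSPC1 (-0.66 to 0.10) and GALNT3 (-1.45 to 0.22). Against LNCaP it did so for TMPRSS2 (-0.85 to 0.030), UGT2B17 (-0.15 to 1.66), SFPQ (-0.042 to 0.10), NEAT1 (-0.055 to 0.11) and MALAT1 (-0.054 to 0.23), and against 22Rv1 for UGT2B17 (-1.21 to 0.56) and PSPC1 (-0.00092 to 0.042). In the fits without a library the LTAD change comes from the pair of the other assay alone, so these ranges set input against PSF-RIP. UGT2B17, for example, had per-assay log2 values of 0.52 in input and -1.13 in PSF-RIP. The cause of such differences between the assays was not tested. KLK3 had 2 vehicle reads in input.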

Other observations

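EPS8L1, an actin-regulator gene singled out after its values were seen, had 0 reads in vehicle input and 425 in DHT input, against 147 and 46 in vehicle and DHT PSF-RIP. The fitted change of 0.98 (adjusted p = 2.8e-07) averages assays that moved in opposite directions (9.52 and -1.91 with the prior count).

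Noncoding genes made up 10.5% of the genes tested, 4.88% of those higher and 7.51% of those lower after DHT. SNAI2, which encodes the transcription factor Slug, had 1 and 7 vehicle reads and 53 and 195 DHT reads in input and PSF-RIP (log2 4.55 ± 0.36), and the transcription factor gene MAF had 2 and 8, and 18 and 250 (4.36 ± 0.35). The calcium channel gene TRPM8 had 0 and 2, and 7 and 48 (4.29 ± 0.68). These 3 genes lie below the expression median used by the naming rule and were chosen after their values were seen.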
